A study of Mus musculus with 11 samples.

Results

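The 10 genes described here, Arhgef3, C2cd4b, Gm13889, Spon2, Hebp2, Il17rd, Crispld2, Cdh19, Prex2 and Tmcc1, were chosen from 24411 counted genes because their level differed with genotype in the same direction in 2 RNA sources of the mouse brain, and because none of them belongs to the circadian clock itself. They were compared in 4 groups of RNA-seq libraries from mice aged 8 to 10 weeks. The groups were neurospheres labelled Bmal1-/- (n = 3) and wild-type neurospheres (n = 3), and dissected corpus callosum labelled Bmal1-/- (n = 2) and from wild-type animals (n = 3). Neurospheres are free-floating balls of neural stem cells and their progeny, here grown from the subventricular zone (SVZ) for 1 week with EGF at 20 ng/ml and heparin at 2 ug/ml, whereas the corpus callosum is the main tract of myelinated axons between the hemispheres. The series asks how the clocks of these places act during demyelination, but no label names a demyelinated sample.

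BMAL1, encoded by Arntl, pairs with CLOCK and binds the E-box CACGTG in the promoters of its targets, among them the Per and Nr1d genes. The Nr1d genes encode the REV-ERB repressors, which bind an element built around AGGTCA that the ROR activators also use. In mice without BMAL1, direct E-box targets are therefore known to be low and genes that REV-ERB represses to be high, and both kinds can include genes outside the clock. The 10 genes have no common pathway: they encode exchange factors for small GTPases, secreted proteins, an adhesion molecule, a brake on growth factor signalling, a haem-binding protein, a membrane protein of the endoplasmic reticulum and proteins of little known function.

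Gene counts summed to 17450270 to 19717848 per library. Strain, sex, the deleted part of Bmal1 and whether each library had its own animal or culture are not in the labels, so errors and p-values cover no more than the variation from library to library. Arntl stood at 43.6 ± 4.06 CPM (SD, n = 3) in neurospheres labelled Bmal1-/- and 44.0 ± 5.56 CPM (SD, n = 3) in wild-type ones, and at 36.7 ± 5.84 CPM (SD, n = 2) in callosum labelled Bmal1-/- and 36.3 ± 3.36 CPM (SD, n = 3) in wild-type callosum. Counts summed along the gene cannot reveal a partly deleted transcript, so genotype is used here as labelled. CPM are counts relative to library size, scaled by TMM over the 11 libraries. The 4 progenitor markers Nes, Sox2, Egfr and Mki67 summed to 1289 to 2278 CPM in neurospheres labelled Bmal1-/- and 1972 to 2342 CPM in wild-type neurospheres. The 4 oligodendrocyte markers Mbp, Mog, Mag and Mobp summed to 21644 and 30240 CPM in callosum labelled Bmal1-/- and 19344 to 29215 CPM in wild-type callosum. The callosum also held neuronal RNA, with 5 markers summing to 6167 to 6903 CPM in libraries labelled Bmal1-/- and 5114 to 6772 CPM in wild-type ones. In such mixed tissue, fewer cells of a type and less RNA per cell cannot be told apart.

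Promoter sequence from RefSeq (build GRCm38.p6, the assembly mm10 names) was at hand for 5 of the 10 genes, Arhgef3 (4 promoters), C2cd4b, Hebp2, Il17rd and Crispld2, and was searched over the 250 bases before each annotated start. Of these 8 windows, 1 held the E-box CACGTG, which is present in 6.02% of all 32851 windows of that length. That window was the promoter of Crispld2, whose level was lower in both sources, and the E-box begins 235 bases before the start. A window of Arhgef3, whose level was higher in both, held AGGTCA 205 bases before that start. AGGTCA or its reverse complement is present in 14% of all windows. Crispld2 was the only lower gene with sequence at hand, so motif and direction could not be compared among the 10 genes. All windows of Arhgef3 and C2cd4b lie wholly inside the genes. The sequence before the first bases of these genes (27114461 and 67716224) was not searched. CACGTT, a weaker form of the E-box, and TATAAA, each searched on both strands, were in none of the 8 (3.85% and 12.4% of all windows). The 3 windows shown are these and that of Il17rd, the gene next to Arhgef3, which held none of the 4 motifs. Capitals mark the motif, and a match describes the letters only. All 3 lie on the plus strand and read 5′ to 3′ towards the start.
Crispld2, chr8:119992188-119992437, E-box in capitals: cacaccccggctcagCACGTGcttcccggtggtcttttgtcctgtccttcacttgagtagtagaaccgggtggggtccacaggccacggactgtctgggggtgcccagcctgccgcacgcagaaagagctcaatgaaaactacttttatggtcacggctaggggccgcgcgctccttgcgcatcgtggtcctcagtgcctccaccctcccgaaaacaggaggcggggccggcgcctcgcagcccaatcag
Arhgef3, chr14:27143743-27143992, AGGTCA in capitals: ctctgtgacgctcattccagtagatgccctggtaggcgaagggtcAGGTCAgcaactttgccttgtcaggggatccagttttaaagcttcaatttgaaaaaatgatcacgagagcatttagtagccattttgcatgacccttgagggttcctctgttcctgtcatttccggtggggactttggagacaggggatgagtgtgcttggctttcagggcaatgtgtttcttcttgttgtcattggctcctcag
Il17rd, chr14:27038751-27039000: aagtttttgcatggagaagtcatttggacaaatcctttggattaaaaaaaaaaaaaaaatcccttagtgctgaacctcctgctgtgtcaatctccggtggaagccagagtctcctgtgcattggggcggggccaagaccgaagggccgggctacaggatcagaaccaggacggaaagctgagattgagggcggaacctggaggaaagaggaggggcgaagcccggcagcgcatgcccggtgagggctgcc

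The 6 genes that were higher in libraries labelled Bmal1-/- and the 4 that were lower kept non-overlapping groups in each source. Groups did not overlap for 12% of the 13968 genes tested in neurospheres (6.28% higher and 5.74% lower in libraries labelled Bmal1-/-) and for 32.5% of the 14198 genes tested in the callosum (13.7% and 18.7%). Of the 12953 genes tested in both sources, 1.74% were higher without overlap in both and 1.85% lower. Since this pattern chose the 10 genes, their fold changes are given as a description, with standard errors (SE) from edgeR and no p.

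**Figure D1:**
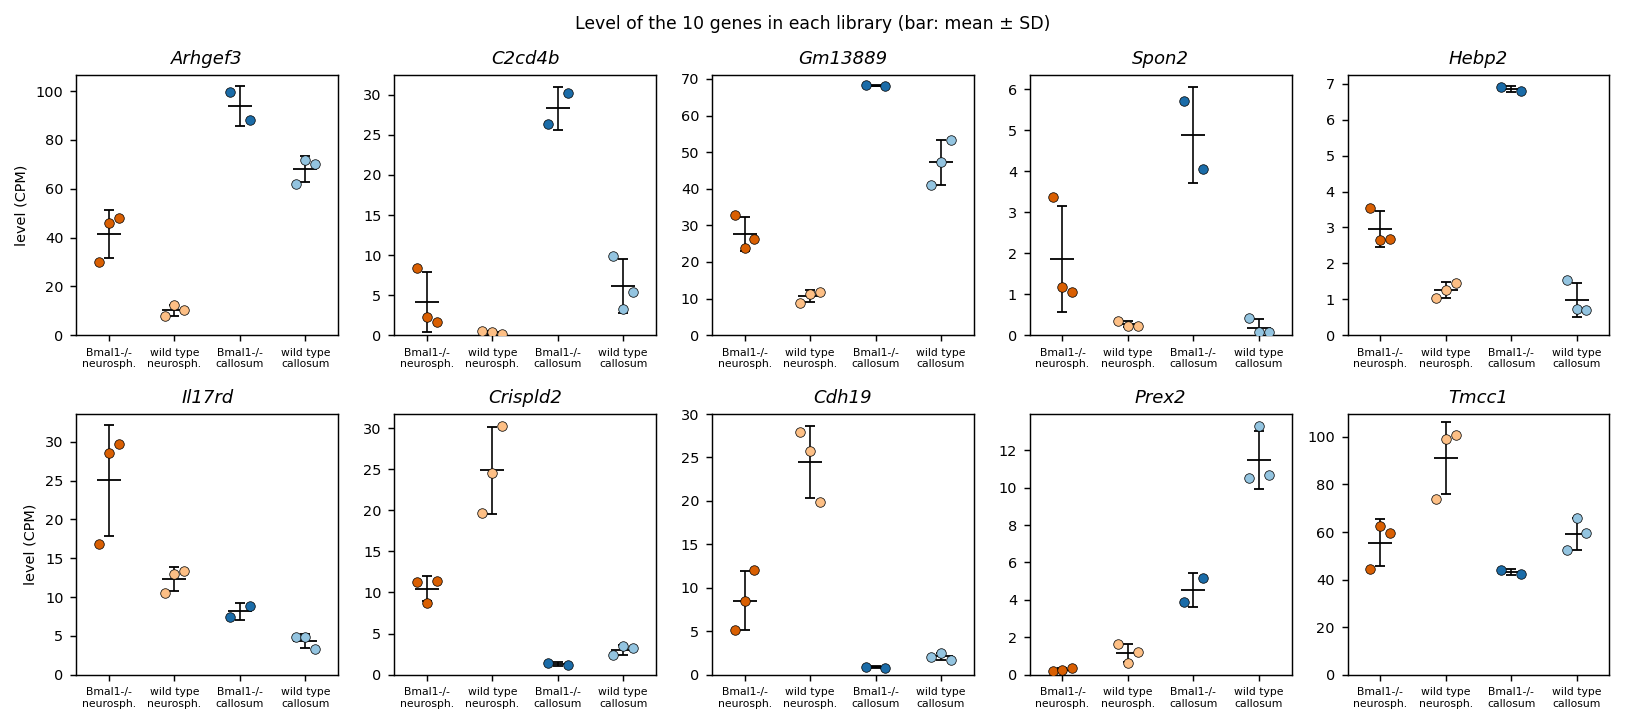
Level of each of the 10 genes in CPM (vertical axes, each from 0) in the 11 libraries, 1 point a library, with the mean and SD of each group as bars. Arhgef3 stood at 30.0 to 48.1 CPM in neurospheres labelled Bmal1-/- and 7.96 to 12.2 CPM in wild-type ones, and Crispld2 at 8.68 to 11.4 CPM and 19.7 to 30.3 CPM in the same groups.

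Arhgef3 and Prex2 encode exchange factors, proteins that switch on small GTPases: ARHGEF3 acts on RHOA and RHOB, and PREX2 on RAC. Arhgef3 (chromosome 14, 27114461 to 27403916, plus strand, mm10) stood at 30.0, 46.0 and 48.1 CPM in neurospheres labelled Bmal1-/-, against 7.96, 12.2 and 10.3 CPM in wild-type neurospheres, a log2 fold change of 2.02 ± 0.25 (SE). The lowest library labelled Bmal1-/- had more than the highest wild-type one. In the callosum it stood at 99.7 and 88.1 CPM in libraries labelled Bmal1-/-, against 62.0, 71.9 and 70.2 CPM in wild type, a log2 fold change of 0.48 ± 0.11. The groups were again apart, with a smaller ratio on a higher base. Counts over the whole gene do not say which of its promoters was in use.

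Prex2 (chromosome 1, 10993273 to 11303683, plus strand), whose product responds to the membrane lipid PIP3 and to G-protein βγ subunits, went the other way. It had 4, 5 and 8 counts in neurospheres labelled Bmal1-/- (0.177, 0.218 and 0.351 CPM), against 36, 14 and 27 counts in wild-type ones (1.61, 0.633 and 1.20 CPM), a log2 fold change of -2.18 ± 0.49. These few counts leave the size of that difference uncertain. In the callosum, where the gene was better covered, it stood at 3.88 and 5.18 CPM in libraries labelled Bmal1-/-, against 10.5, 13.3 and 10.7 CPM in wild type, at -1.33 ± 0.21. The wild-type libraries were close together and all above the others.

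Il17rd (chromosome 14, 27038964 to 27107286, plus strand) encodes SEF, a membrane protein of the IL-17 receptor family known to damp FGF and ERK signalling. Its end lies 7175 bases before the start of Arhgef3, on the same strand. It stood at 16.8, 28.6 and 29.7 CPM in neurospheres labelled Bmal1-/-, against 10.5, 13 and 13.4 CPM in wild-type neurospheres, a log2 fold change of 1.02 ± 0.25. It stood at 7.40 and 8.89 CPM in callosum labelled Bmal1-/-, against 4.87, 4.84 and 3.32 CPM in wild-type callosum, at 0.92 ± 0.22. Unlike Arhgef3, its log2 fold changes in the sources lay within 1 SE of each other. The nearest tested genes on either side of the pair, chosen for their place, gave other values: Appl1 stood at -0.21 ± 0.28 in neurospheres and -0.30 ± 0.15 in the callosum, and Ccdc66 at -0.09 ± 0.18 and -0.52 ± 0.28.

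Spon2 and Crispld2 encode secreted proteins. SPON2, or mindin, is an extracellular matrix protein of the F-spondin family that binds microbial products and integrins. Spon2 (chromosome 5, 33213518 to 33218254, minus strand) was a gene of few counts, with 76, 27 and 24 in neurospheres labelled Bmal1-/- against 8, 5 and 5 in wild-type ones, and 81 and 58 in callosum labelled Bmal1-/- against 6, 1 and 1 in wild-type callosum. The log2 fold changes were 2.77 ± 0.58 in neurospheres and 4.69 ± 0.52 in the callosum. A pair of wild-type callosum libraries thus lay below 3 counts, taken here as the floor, and the size of the callosum difference rests on them. It was 6.01 without wild-type replicate 1, the library with 6 counts. In neurospheres it was 2.03 without replicate 1 labelled Bmal1-/-, the library with 76 counts.

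CRISPLD2 carries a CAP domain and binds lipopolysaccharide, and its rat counterpart was described as a glucocorticoid-induced gene of the fetal lung. Crispld2 (chromosome 8, 119992438 to 120052794, plus strand) had the E-box in its searched window. It stood at 11.3, 8.68 and 11.4 CPM in neurospheres labelled Bmal1-/-, against 19.7, 24.6 and 30.3 CPM in wild-type neurospheres. In callosum labelled Bmal1-/- it stood at 1.41 and 1.12 CPM (20 and 16 counts). Wild-type callosum had 2.36, 3.49 and 3.25 CPM (34, 52 and 47 counts). Its log2 fold change was -1.25 in each source, with SE of 0.22 in neurospheres and 0.32 in the callosum. The level itself differed between the sources far more than with genotype.

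Cdh19 (chromosome 1, 110888002 to 110977601, minus strand) encodes a type II cadherin, an adhesion molecule known from Schwann cell precursors and other glia of peripheral nerve. It stood at 5.13, 8.42 and 12 CPM in neurospheres labelled Bmal1-/-, against 27.9, 25.7 and 19.9 CPM in wild-type neurospheres, a log2 fold change of -1.53 ± 0.31. In the callosum it had 13 and 11 counts in libraries labelled Bmal1-/-, against 29, 37 and 25 in wild type, at -1.28 ± 0.36.

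Hebp2 (chromosome 10, 18540123 to 18546076, minus strand) encodes a haem-binding protein of the SOUL family. It stood at 3.54, 2.66 and 2.67 CPM in neurospheres labelled Bmal1-/-, against 1.03, 1.27 and 1.46 CPM in wild-type neurospheres, a log2 fold change of 1.24 ± 0.29. In the callosum it stood at 6.91 and 6.79 CPM in libraries labelled Bmal1-/-, against 1.53, 0.739 and 0.693 CPM in wild type, at 2.80 ± 0.32. The 2 callosum libraries labelled Bmal1-/- lay close together, and the gap to wild type was wide. The wild-type callosum libraries held only 22, 11 and 10 counts, which leaves the size of that gap uncertain.

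C2cd4b (chromosome 9, 67716224 to 67760933, plus strand) encodes a nuclear protein with a C2 domain, studied mostly in pancreatic islets and in inflamed endothelium. It had 190, 53 and 37 counts in neurospheres labelled Bmal1-/-, against 11, 9 and 3 in wild-type ones, a log2 fold change of 3.56 ± 0.77. Without replicate 1 labelled Bmal1-/- that value was 2.50. Callosum levels were 26.4 and 30.2 CPM in libraries labelled Bmal1-/-, against 9.87, 3.22 and 5.40 CPM in wild type, at 2.22 ± 0.37. Of the 50-base stretches of its transcript, 8.37% also occur in another counted gene, its neighbour C2cd4a, so a small part of its reads could be lost or shared. C2cd4a itself had too few counts to be tested in either source. Its exons also overlap M5C1000I18Rik, which lies on the opposite strand and is not among the counted genes, and over all GENCODE M21 genes 49.9% of its stretches are shared. The libraries do not keep the strand, so reads of that RNA would be counted as C2cd4b.

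Gm13889 (chromosome 2, 93955810 to 93957100, minus strand) is a predicted gene that RefSeq lists as protein coding, with the synonym Ag2. It stood at 32.9, 23.7 and 26.4 CPM in neurospheres labelled Bmal1-/-, against 8.81, 11.3 and 11.9 CPM in wild-type neurospheres, a log2 fold change of 1.38 ± 0.21. Callosum levels were 68.2 and 68.1 CPM in libraries labelled Bmal1-/-, against 41.0, 47.2 and 53.4 CPM in wild type, at 0.54 ± 0.13. Like Arhgef3, it was higher in callosum than in neurospheres in every library and had the smaller log2 fold change there. Gm27027, which GENCODE M21 places on the same strand and which is not among the counted genes, shares 18.1% of its 50-base stretches.

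Tmcc1 (chromosome 6, 116018611 to 116193521, minus strand) encodes a coiled-coil protein of the endoplasmic reticulum known to act where endosomes divide in human cells. It stood at 44.4, 62.7 and 59.5 CPM in neurospheres labelled Bmal1-/-, against 73.7, 99.1 and 101 CPM in wild-type neurospheres, a log2 fold change of -0.72 ± 0.20. Callosum levels were 43.9 and 42.2 CPM in libraries labelled Bmal1-/-, against 52.4, 65.7 and 59.7 CPM in wild type, at -0.45 ± 0.13. Its differences had the smallest log2 size of the 10 in each source. Its exons overlap Gm20404 and Gm8203 on the other strand, neither of them counted.

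**Figure D2:**
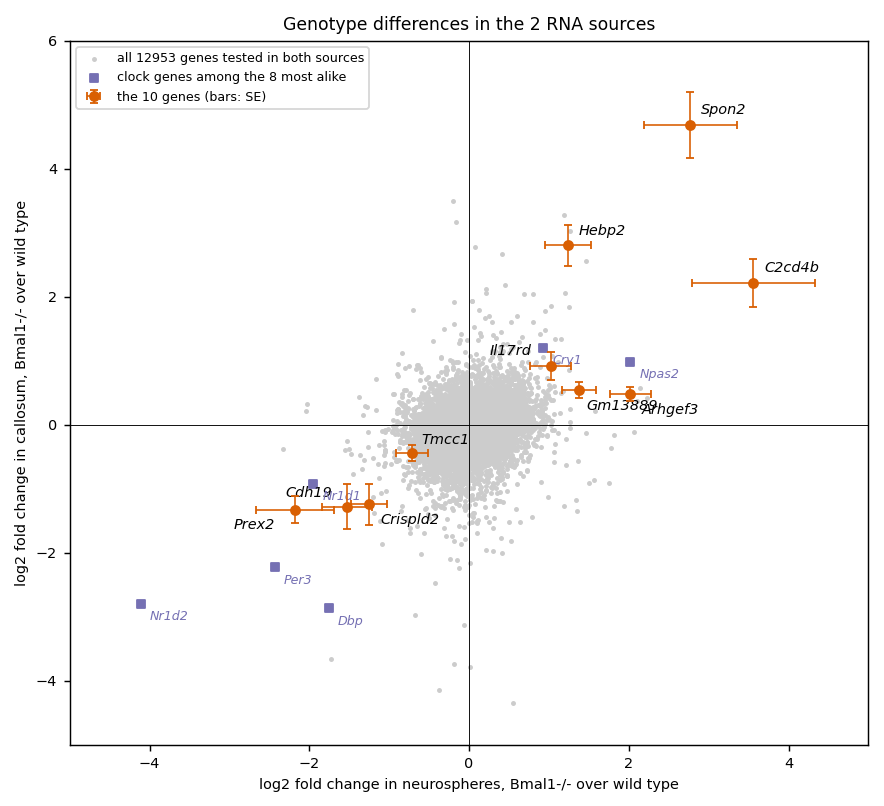
Log2 fold change with genotype in neurospheres (horizontal axis) and callosum (vertical axis) for the 12953 genes tested in both (grey; 1 gene lies outside the axes), with the 10 genes in orange (bars: SE) and 6 clock genes in purple. The 10 genes lie at the upper right or lower left by the way they were chosen, with Spon2 at 2.77 and 4.69 and Tmcc1 at -0.72 and -0.45.

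To place the 10 genes among all others, same-sign genes were ranked by the smaller of their ratios of log2 fold change to SE in the sources, which share no library. Of the 12953 genes, 7991 (61.7%) had the same sign. The 10 genes took ranks 10 (Spon2) to 23 (Tmcc1). The ranking uses the same differences that chose them, so their high ranks describe the choice and are no separate evidence. The scores behind the ranks depend on the processing: that of Arhgef3 was 4.23, and 2.09 in the single model, and that of Crispld2 3.93, and 2.59 without callosum replicate 2 labelled Bmal1-/-. The 8 other genes of highest rank were Nr1d2, Npas2, Per3, Nr1d1 and Dbp, all of the clock, then Col5a3, which encodes a collagen chain, Trim12a, and the clock repressor Cry1. Nr1d2 had log2 fold changes of -4.11 ± 0.20 in neurospheres and -2.80 ± 0.25 in the callosum. Col5a3 had 0.95 ± 0.18 and 1.77 ± 0.17. Trim12a had 0 counts in the libraries labelled Bmal1-/- of either source, against 70 over the wild-type neurospheres and 32 over the wild-type callosum. The ranks from 9 to 24 that the 10 genes left free were those of Sox3, Chil1, Plat, Ucp2, Coa4 and Stard10, named after their values were seen. In all, 99 genes (0.764%) had the same sign and an unadjusted edgeR p under 0.05 in each source, 66 of them higher and 33 lower, and 15 genes (0.116%) had opposite signs at that p.

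**Figure D3:**
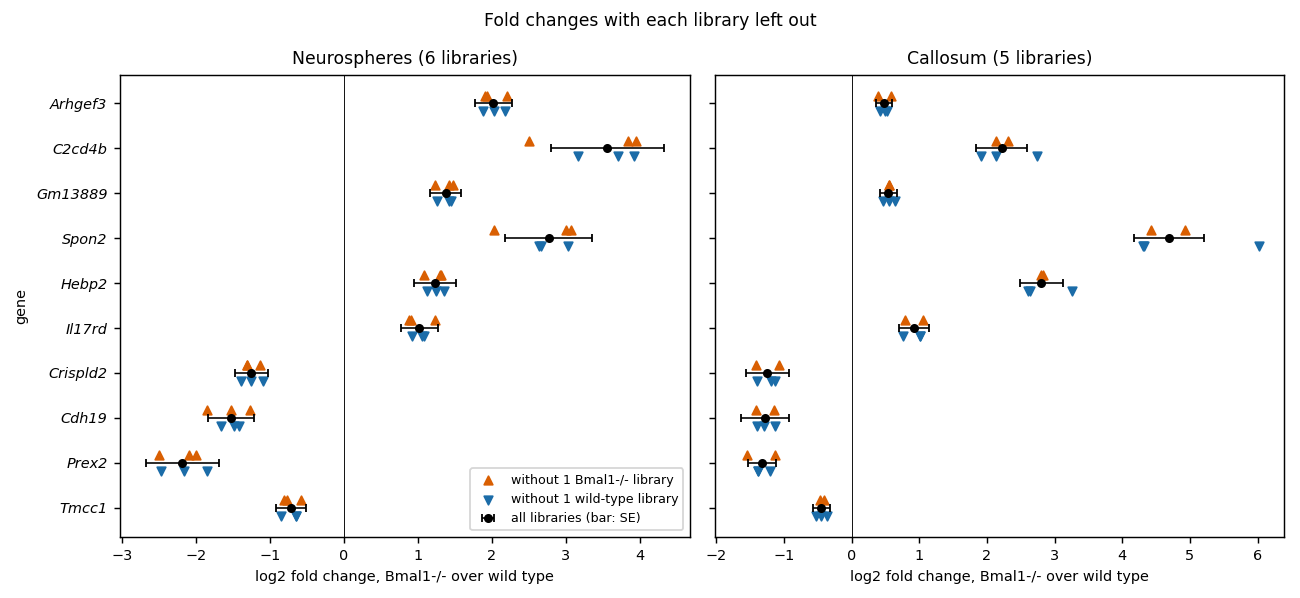
Log2 fold change with genotype of each of the 10 genes (rows) in neurospheres (left) and callosum (right), with all libraries (black, bar: SE) and with each library left out in turn (triangles; orange for a library labelled Bmal1-/-, blue for a wild-type one). Spon2 and C2cd4b move most, to 2.03 and 2.50 in neurospheres without replicate 1 labelled Bmal1-/-. Spon2 also moves to 6.01 in callosum without wild-type replicate 1. No gene's triangles change sign, which groups without overlap do not allow.

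A neurosphere library, replicate 1 labelled Bmal1-/-, stood apart, with 22.6% of its reads unmapped against 13.7% to 16.2% in the other 5. Its summed markers stood apart too, at 3951 CPM for astrocytes against 5292 to 5654 CPM in the other 5, 1289 CPM for the 4 progenitor markers against 1972 to 2342 CPM, and 72.6 CPM for microglia against 6.75 to 26.7 CPM. Replicate 3 labelled Bmal1-/- also lay outside the other 5 in places. It stood at 572 CPM for the 4 oligodendrocyte markers against 770 to 1058 CPM, and at 6.75 CPM for microglia against 15.9 to 72.6 CPM. The part of these markers in the values of either library was not tested. Among the 10 genes the place of replicate 1 labelled Bmal1-/- differed with transcript length, which was not examined over all genes. For the 4 with the shortest transcripts (1327 to 2535 bases), C2cd4b, Gm13889, Spon2 and Hebp2, it was the highest of its group. For 5 of the 6 with longer ones (3618 to 11053 bases) it was the lowest. For Crispld2 (4182 bases) it lay in the middle, at 11.3 CPM beside 8.68 and 11.4 CPM. The cut between short and long was placed where the position of this library changed. The 4 shortest were all chosen as higher in libraries labelled Bmal1-/-, and all the lower genes were among the longer ones. An effect of length was not tested. Without this library the log2 fold change of Arhgef3 was 2.21, that of Il17rd 1.24, that of Cdh19 -1.27 and that of Tmcc1 -0.58. The groups of the 10 genes did not overlap, so leaving out a library could not turn a direction. In the callosum, wild-type replicate 1 was the highest of the wild-type libraries for C2cd4b, Spon2 and Hebp2, and without it their log2 fold changes were 2.74, 6.01 and 3.26.

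Summed markers of other cells stood apart between genotypes in places, though by edgeR the only called genes of the lists in this paragraph were 2 of the 6 astrocyte markers, in the callosum. The 7 markers of mural cells and fibroblasts summed to 26.4 to 34.0 CPM in neurospheres labelled Bmal1-/- and 16.2 to 21.3 CPM in wild-type ones, but to 81.4 and 120 CPM in callosum labelled Bmal1-/- and 104 to 138 CPM in wild-type callosum. In the callosum, the 6 astrocyte markers, Gfap among them, summed to 3258 and 3610 CPM in libraries labelled Bmal1-/- and 1871 to 2131 CPM in wild type, and the 4 choroid plexus markers to 14.1 and 10.3 CPM and 22.8 to 183 CPM. The 9 striatal neuron markers, a sign of neighbouring tissue, summed to 855 and 1119 CPM in libraries labelled Bmal1-/- and 951, 3111 and 1716 CPM in wild-type ones. In neurospheres, the choroid plexus markers summed to at most 0.313 CPM in any library, with Ttr at 0 counts in both groups. The part of these cells in the differences of the 10 genes was not tested.

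The level of the 10 genes in one source against the other was not used in choosing them and was tested. In wild type, 9 of the 10 had counts enough to be tested, and 4 were called higher and 4 lower in callosum than in neurospheres by edgeR at an adjusted p under 0.05. Of all 14733 genes tested, 85.8% were called (42.0% higher and 43.8% lower), so the share of the 10 genes was near that of all genes. Arhgef3 (log2 fold change 2.75 ± 0.16, SE, adjusted p = 2.2e-07), Gm13889 (2.16 ± 0.16, 8.5e-07), C2cd4b (4.15 ± 0.53, 5.06e-05) and Prex2 (3.33 ± 0.30, 3.81e-06) were the higher ones. Cdh19 (-3.54 ± 0.21, 2e-07), Crispld2 (-3.02 ± 0.22, 9.23e-07), Il17rd (-1.49 ± 0.20, 7.46e-05) and Tmcc1 (-0.61 ± 0.14, 0.003) were the lower ones. The neighbours Arhgef3 and Il17rd thus differed between the sources in opposite directions. Hebp2 did not pass, at -0.33 ± 0.37 (adjusted p = 0.42), and Spon2 was too low to be tested.

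Libraries labelled Bmal1-/-, a separate set, gave 5 higher and 3 lower of 10, against 72.6% called among 14883 genes (35.1% higher and 37.5% lower). Here Hebp2 was higher in callosum (1.23 ± 0.28, edgeR adjusted p = 0.0068), and Spon2 (1.40 ± 0.56, 0.057) and Tmcc1 (-0.35 ± 0.23, 0.204) did not pass. The call of Spon2 turned on the setting: its adjusted p was 0.0453 with RLE scaling, 0.027 with DESeq2, 0.0313 with limma-voom, 0.021 with the replicate number as a block and 0.027 in a single model of the 11 libraries. Spon2 and Tmcc1 also passed without neurosphere replicate 1 (2.13 and -0.50, edgeR adjusted p = 0.000298 and 0.00451), and Hebp2 did not without callosum replicate 1 (1.22, 0.05). Without that neurosphere replicate C2cd4b stood at 3.84, against 2.80 with it. Unmapped reads made up 7.77% to 8.46% in the callosum libraries and 13.7% to 22.6% in the neurosphere ones, and their part in these differences was not tested.

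**Figure D4:**
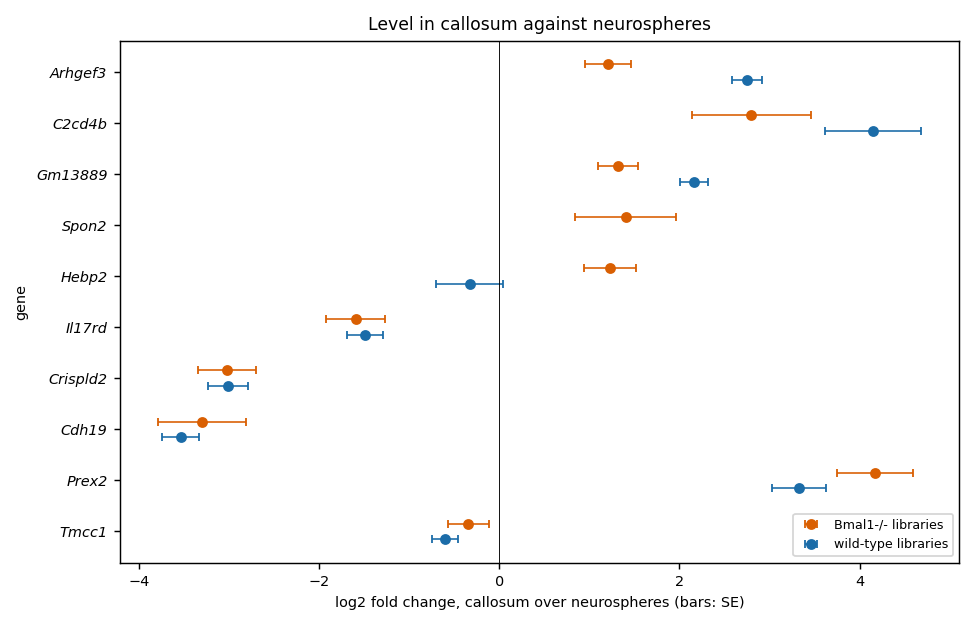
Log2 fold change of callosum over neurospheres (horizontal axis, bars: SE) for each of the 10 genes (rows), in libraries labelled Bmal1-/- (orange) and wild-type libraries (blue). Crispld2 lies at -3.02 in both, whereas Hebp2 lies at 1.23 and -0.33, and Spon2 has no wild-type value because it was too low to be tested.

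Levels of the 4 groups ran in different orders. For Arhgef3 and Gm13889 the order was callosum labelled Bmal1-/-, wild-type callosum, neurospheres labelled Bmal1-/- and wild-type neurospheres, with no overlap between neighbours in that order. C2cd4b had the same order, but wild-type callosum and neurospheres labelled Bmal1-/- overlapped. Spon2 and Hebp2 were highest in callosum labelled Bmal1-/-, then in neurospheres labelled Bmal1-/-, and their wild-type groups overlapped. Crispld2 and Cdh19 were highest in wild-type neurospheres, then neurospheres labelled Bmal1-/-, wild-type callosum and callosum labelled Bmal1-/-, all apart. Il17rd had both neurosphere groups above both callosum groups and Prex2 the reverse, each with its groups apart. For Tmcc1, wild-type callosum and neurospheres labelled Bmal1-/- overlapped in the middle of the order. Per kilobase of transcript, Gm13889 had the highest group means of the 10 genes, 49.2 CPM per kb in callosum labelled Bmal1-/- and 34 CPM per kb in wild-type callosum, and the lowest was that of Prex2 in neurospheres labelled Bmal1-/- (0.0225).

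Genes near the 10 were examined for shared local differences. Within 200 kb lay 36 other counted genes, of which 27 were tested in each source. In neurospheres their log2 fold changes ran from -0.89 to 0.50. In the callosum 1 of 27 was called, beside 0.909% of all genes (0.521% higher and 0.387% lower). It was Nhsl1, which encodes a protein related to the actin regulator NHS and lies 6231 bases from Hebp2, at 0.90 ± 0.12 (adjusted p = 0.0119). That call ended without wild-type replicate 3 (adjusted p = 0.118) and in a single model of the 11 libraries (0.587). In neurospheres Nhsl1 stood at 0.38 ± 0.33 (edgeR adjusted p = 0.798), of the same sign as Hebp2 in each source. None of the 10 genes lies on chromosome 7, which holds Arntl. Trim12a and Ucp2, named above among the genes most alike in both sources, do lie on chromosome 7. Other differences in genome between the animals of each genotype, there or elsewhere, were not tested.

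**Figure D5:**
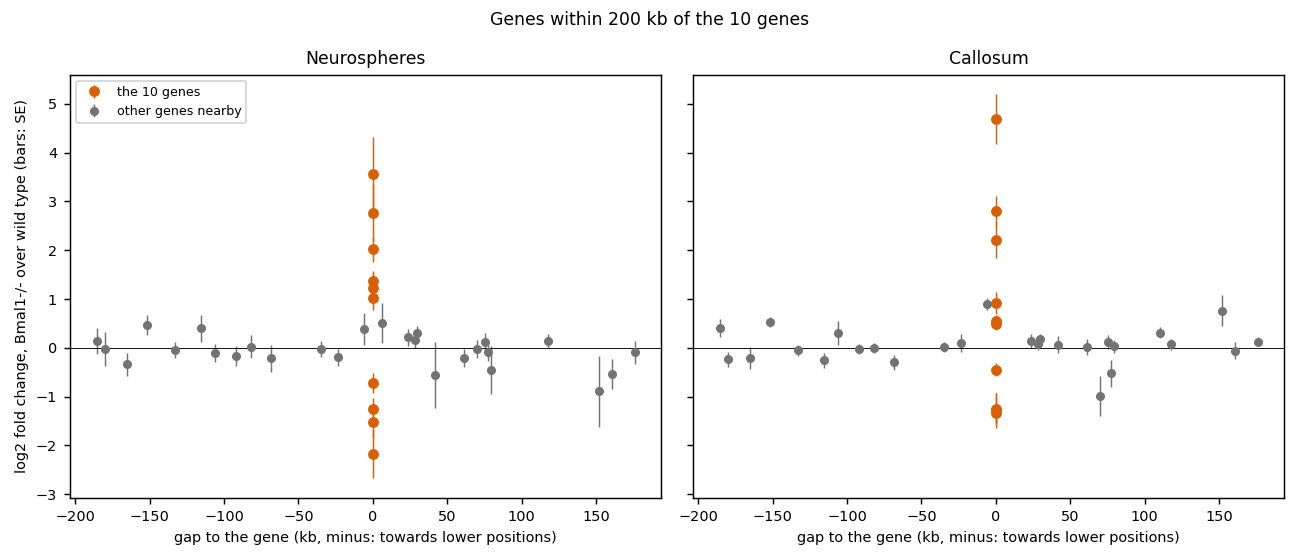
Log2 fold change with genotype (vertical axis, bars: SE) of the 10 genes (orange, at 0) and of the other tested genes within 200 kb (grey) against the gap between them in kb, in neurospheres (left) and callosum (right). The neighbours lie between -0.89 and 0.50 in neurospheres and between -0.99 and 0.90 in the callosum.

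Relatives of the 10 genes and genes of their pathways were compared with genotype in the same way. These lists, 119 genes with the clock left out, cover exchange factors of the ARHGEF, PREX, VAV, TIAM and PLEKHG families with ECT2 and NET1, their GTPases with the ROCK kinases, IL-17 receptors, FGF receptors and their feedback inhibitors, spondins and thrombospondins, CAP domain genes, classical cadherins, the C2CD4 and TMCC families and haem turnover. In neurospheres 0 of 91 tested genes were called by edgeR, against 0.00716% of all genes, with 5 at an unadjusted p under 0.05 (3.02% of all genes had such a p) and 0 called by DESeq2. In the callosum 1 of 100 was called, against 0.909% of all genes. Of the 100, 23 had an unadjusted p under 0.05, against 13.9% of all genes. The share at that p was thus larger than over all genes, as in neurospheres, and this was not tested. The called gene was Rhoc, a GTPase of cell movement, at 46.5 ± 4.2 CPM (SD, n = 2) in libraries labelled Bmal1-/- and 23.8 ± 1.90 CPM (SD, n = 3) in wild type, a log2 fold change of 0.98 ± 0.12 (edgeR adjusted p = 0.00867). Its call ended without wild-type replicate 3 (adjusted p = 0.0709) and in the single model (0.373). The median log2 fold change over the lists was -0.05 in neurospheres and 0.04 in the callosum, beside -0.01 over all genes tested in each.

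Single relatives are named for kinship, after their values were seen. Of the 35 tested exchange factors, 0 were called by edgeR in either source (1 in neurospheres and 5 in the callosum at an unadjusted p under 0.05, a level that 3.02% and 13.9% of all genes reached in these sources). Their log2 fold changes ran from -0.69 to 0.41 in neurospheres and from -1.11 to 0.81 in the callosum. Net1, the nearest relative of Arhgef3, stood at -0.18 ± 0.26 in neurospheres and -0.29 ± 0.17 in the callosum, and Prex1, that of Prex2, at 0.07 ± 0.21 and 0.13 ± 0.11. Rhoa and Rhob, which encode the substrates of ARHGEF3, had log2 fold changes of 0.09 ± 0.15 and 0.44 ± 0.28 in neurospheres and -0.12 ± 0.15 and 0.04 ± 0.10 in the callosum. Of the FGF receptors and feedback inhibitors, 0 of 13 were called by edgeR in neurospheres and 0 of 14 in the callosum (0 and 4 at an unadjusted p under 0.05, beside the same 3.02% and 13.9% of all genes). Their log2 fold changes ran from -0.62 to 0.38 in neurospheres and from -0.57 to 1.49 in the callosum. Etv1, a transcription factor induced by FGF signalling, had the lowest value in each (-0.62 ± 0.34 and -0.57 ± 0.18), and Fgfr4, too low to be tested in neurospheres, the highest in the callosum (1.49 ± 0.42). The feedback inhibitor Spry4 stood at -0.05 ± 0.21 and -0.03 ± 0.14, and Dusp6, a phosphatase of ERK, at 0.09 ± 0.31 and -0.06 ± 0.19. Il17ra, the common chain of IL-17 receptors, stood at 0.13 ± 0.26 and -0.03 ± 0.15.

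Spon1, which encodes F-spondin, had values of opposite sign, -0.57 ± 0.31 in neurospheres and 0.59 ± 0.12 in the callosum (edgeR adjusted p = 0.798 and 0.0711). Glipr2, a CAP domain gene like Crispld2, stood at 0.74 ± 0.24 and 1.16 ± 0.22 (0.798 and 0.0536). Of the cadherins, 0 of 12 were called by edgeR in neurospheres and 0 of 15 in the callosum (1 and 4 at an unadjusted p under 0.05, beside 3.02% and 13.9% of all genes). Their log2 fold changes ran from -1.05 to 0.28 and from -0.51 to 0.40, with Cdh11 at 0.06 ± 0.22 and -0.20 ± 0.11. Tmcc2 (0.06 ± 0.20 and 0.06 ± 0.10), Tmcc3 (-0.23 ± 0.33 and 0.02 ± 0.18) and Hebp1 (0.50 ± 0.23 and 0.16 ± 0.13) did not pass. Of the list genes, 0 of 103 outside the clock differed in genotype effect between callosum and neurospheres by edgeR's interaction test (0.0131% of all 15322 genes did), with 6 at an unadjusted p under 0.05 beside 4.28% of all genes.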

How the data were processed

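The authors deposited raw read counts per gene, 1 file a library, aligned with STAR 2.7.1a to mm10 per the submitters' processing notes. As for the annotation, it is not given in the sources consulted, nor is the choice between poly(A) selection and rRNA depletion, which the labels' protocols both name. Counts that ignore strand (column 2) were used for 24411 genes, and the 4 rows of unassigned reads were left out. Depth was 17450270 to 19717848 counts, so 3 counts, taken as the floor, are 0.152 to 0.172 CPM. Such floors cover counting error only. Reads mapping to several places are listed at 0.

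Groups came from sample titles. Each comparison was fitted over all genes with edgeR 4.0.16 in R 4.3.3 (filterByExpr, TMM, estimateDisp, glmQLFit with robust = TRUE, glmQLFTest, two-sided, Benjamini-Hochberg adjustment, called at an adjusted p under 0.05), and the code was tested on simulated data. SE is the log2 fold change divided by the square root of F. Library 1 of the neurospheres labelled Bmal1-/- was kept. Transcript lengths are of the longest GENCODE M21 transcript, and gene positions are from RefSeq GRCm38.p6. Neighbours are counted genes within 200 kb. Named genes are the 10, the 8 others most alike in rank, and the called genes of the lists and neighbours. The 10 genes and the lists were chosen with earlier results of these data known. Some marker genes are not reported here. Alternatives were RLE scaling, no filter on low counts, DESeq2 1.42.0, limma-voom (limma 3.58.1), a single model of all 11 libraries, a larger prior count (2 in place of 0.125), the replicate number as a block, and each library left out.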

Additional observations from a re-analysis of the deposited data

How the results depend on the processing

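No value of the 10 genes changed sign in any alternative. For the differences with genotype the groups did not overlap, so leaving out a library could not change a sign. By genotype, 247 of 250 alternative log2 fold changes moved by less than the spread between libraries, and the other 3 were those of Spon2 and C2cd4b given above. By source, 229 of 237 kept their side of the threshold, 7 gained a call (6 of them Spon2, in libraries labelled Bmal1-/-) and 1 lost it, with 8 of the 10 genes called in wild type in every alternative and 7 to 10 in libraries labelled Bmal1-/-. Counts over all genes moved more. In neurospheres edgeR called 1 gene, against 5 with no filter, 34 with DESeq2, 2 with limma-voom, 19 in the single model and 1 to 5 with a library left out (5 without replicate 1 labelled Bmal1-/-). In the callosum it called 129, against 224 with no filter, 331 with DESeq2, 33 in the single model and 27 to 192 with a library left out (27 when wild-type library 3 was absent, 73 for wild-type library 2, and 49 for library 1 labelled Bmal1-/-). List genes called in the callosum numbered 1, against 2 with RLE scaling, 4 with no filter, 4 with DESeq2, 0 in the single model and 0 to 2 with a library left out, alternatives added after seeing the data. The interaction test called 0 list genes, the clock included, and 1 with DESeq2. Genes alike in both sources numbered 99, and 52 to 169 with a library left out (52 without wild-type neurosphere replicate 2, 57 without replicate 3 and 169 without neurosphere replicate 2 labelled Bmal1-/-). Likeness scores moved in 53 of 304 alternatives. The cause of these moves was not tested.

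Same-numbered libraries did not deviate together throughout (in neurospheres r = 0.282, -0.00754 and 0.326 across 15322 genes), so the number was not taken as a pairing. With it as a replicate block, 2 genes were called in neurospheres, 131 in the callosum, 8 of the 10 genes by source in wild type and 9 in libraries labelled Bmal1-/-, and 147 genes were alike in both sources. Few counts limit Spon2, Prex2, C2cd4b, Cdh19, Hebp2 and, in the callosum, Crispld2 most, and 2 libraries in a group limit every callosum value.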
